A study of Mus musculus with 36 samples.

Results

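The genes described here are 44 cell cycle and DNA replication genes, chosen by symbol from a list drawn up with earlier results of these data known, out of 52636 genes in the deposited count files. They were followed in bone marrow-derived macrophages, which are macrophages grown from mouse marrow in M-CSF, from mice labelled C57BL/6N that were wild type (WT) or lacked N4bp1 by knockout (KO). N4BP1 is an RNA-binding protein known to restrain inflammatory gene expression. How the gene was inactivated and the age of the mice are not given in the sources used here. All 12 groups received R837 (imiquimod), a small molecule that activates Toll-like receptor 7, and no untreated cells were analysed here. Each genotype had a group with 3 h of R837, a group with 7 h of R837, and 4 groups with 3 h of R837 followed by 0.5, 1, 2 or 4 h of actinomycin D (ActD), which blocks transcription. Each group held 3 libraries, described as 3 individual mice, 36 libraries in all. The labels do not tie libraries of different groups to the same mouse.

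A dividing cell loads the MCM helicase onto replication origins with the help of CDC6 and CDT1, activates the helicase in S phase with CDC45 and the GINS complex, and later builds a spindle under the control of mitotic cyclins and kinases. Many of these genes are switched on by E2F factors before S phase, or later in the cycle through promoter elements called the cell cycle genes homology region (CHR) and the CCAAT box. Macrophages divide in response to M-CSF, and Toll-like receptor ligands are known to slow that division. In RNA from whole cultures, fewer cycling cells and less transcript per cycling cell cannot be told apart.

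Promoter sequences, 250 bases before to 50 after the start site, were taken from RefSeq (GRCm38.p6) and matched 35 of the 44 members. They were searched on both strands for an E2F site (TTTCCCGC, TTTGGCGC, TTTCGCGC or TTTGCCGC), the core of the CHR (TTTGAA) and the CCAAT box (CCAAT). An E2F site was found in 7 of the 35 (20.0%), against 2.3% of all 32851 promoters in the table. These were 6 of the 8 matched licensing and helicase promoters (Cdc6, Cdt1, Mcm3, Mcm5, Mcm6 and Mcm7) and that of Cdk1. The CHR core was found in 17 (48.6%) against 17.9% of all promoters, among them 7 of 10 mitotic and 5 of 8 spindle promoters. The CCAAT box was found in 26 (74.3%) against 37.4%, and 16 (45.7%) held both the CHR core and the CCAAT box, against 7.0% of all. Members were scored per gene, over all entries of that gene, and the background per promoter entry, so the shares compared are not on the same unit. A match describes letters in the window and not a bound factor. Sequences upstream of the start are shown for the 5 members with an entry whose change over time differed between the genotypes, as described further on. They are Cdk1 (chr10:69352913-69353162), Mcm6 (chr1:128359706-128359955), Mki67 (chr7:135716380-135716629), Ccne1 (chr7:38107535-38107740) and Tyms (chr5:30073626-30073875), all on the minus strand and read 5′ to 3′, with the searched motifs in capitals.
Cdk1: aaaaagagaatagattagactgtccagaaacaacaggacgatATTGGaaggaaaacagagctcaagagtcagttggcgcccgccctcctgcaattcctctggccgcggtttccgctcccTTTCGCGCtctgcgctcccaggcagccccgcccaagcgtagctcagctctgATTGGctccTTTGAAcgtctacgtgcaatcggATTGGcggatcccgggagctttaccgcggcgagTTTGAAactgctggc
Mcm6: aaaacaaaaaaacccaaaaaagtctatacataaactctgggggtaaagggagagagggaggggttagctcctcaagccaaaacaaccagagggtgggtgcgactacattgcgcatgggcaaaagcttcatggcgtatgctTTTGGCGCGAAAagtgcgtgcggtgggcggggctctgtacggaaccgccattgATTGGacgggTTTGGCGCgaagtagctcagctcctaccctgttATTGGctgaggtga
Mki67: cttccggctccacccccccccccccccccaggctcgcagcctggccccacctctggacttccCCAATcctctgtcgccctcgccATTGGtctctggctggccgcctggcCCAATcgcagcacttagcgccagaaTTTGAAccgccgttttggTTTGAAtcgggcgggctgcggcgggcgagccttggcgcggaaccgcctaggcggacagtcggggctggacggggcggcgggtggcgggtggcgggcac
Ccne1: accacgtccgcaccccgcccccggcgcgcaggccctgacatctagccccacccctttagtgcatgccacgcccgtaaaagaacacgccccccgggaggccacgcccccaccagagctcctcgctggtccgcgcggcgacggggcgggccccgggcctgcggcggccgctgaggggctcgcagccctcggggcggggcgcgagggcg
Tyms: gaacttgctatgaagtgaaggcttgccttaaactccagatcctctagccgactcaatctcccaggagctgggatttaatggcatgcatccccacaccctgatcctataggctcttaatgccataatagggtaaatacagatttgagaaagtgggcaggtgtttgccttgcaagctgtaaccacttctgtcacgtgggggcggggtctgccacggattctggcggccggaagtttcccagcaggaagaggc
Cdk1 carries 1 E2F site, 2 CHR cores and 3 CCAAT boxes in these bases. Mcm6 carries 3 E2F sites, of which a pair overlaps, and 2 CCAAT boxes, and Mki67 carries 2 CHR cores and 3 CCAAT boxes. Ccne1, shown for 206 bases, and Tyms hold none of the searched letters in the bases shown.

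The members were sorted by role into 11 replication licensing and helicase genes (Mcm2 to Mcm7, Cdc6, Cdt1, Cdc45, Gins1 and Gins2), 4 genes of nucleotide supply and the sliding clamp (Rrm1, Rrm2, Tyms and Pcna), 4 G1/S factors (E2f1, E2f8, Ccne1 and Ccne2), 13 mitotic cyclin, kinase and checkpoint genes (Cdk1, Ccna2, Ccnb1, Ccnb2, Aurka, Aurkb, Birc5, Plk1, Pbk, Bub1, Bub1b, Ttk and Cdc20), 10 spindle, kinetochore and cytokinesis genes (Cenpe, Cenpf, Kif11, Kif20a, Kif23, Nusap1, Tpx2, Nuf2, Ndc80 and Ect2) and 2 chromosome structure genes (Mki67 and Top2a). All 44 passed the filter on low counts. Library totals ran from 20271550 to 46107214 counts, and the members together held between 0.0332% and 0.1198% of them. Per length, in the deposited RPKM (reads scaled by gene length and library size), Pcna was the most abundant member in WT cells at 3 h of R837, at 28.04 ± 0.822 (SD, n = 3). Mcm5 at 23.9 ± 2.96, Mcm6 at 21.9 ± 2.25 and Rrm1 at 21.7 ± 2.65 RPKM followed and lay within their SDs of each other. Cdc6 and Cenpf stood lowest, at 0.125 ± 0.0143 and 0.071 ± 0.025 RPKM. They rested on 0 to 38 and 2 to 68 counts per library, so only large changes were detectable in them.

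N4bp1 itself was checked first, in CPM (counts scaled by library size and composition). At 3 h it was at 125, 147 and 128 CPM in WT and 85.97, 84.98 and 81.3 CPM in KO, a log2 change of -0.67 ± 0.076 (SE; edgeR adjusted p = 1.08e-08). The transcript was lower but present in the libraries labelled KO, and a gene-level count cannot show whether a deleted part is missing. Under ActD the log2 change of KO against WT was -0.745 after 0.5 h, -0.615 after 1 h, 0.082 and not called after 2 h, and 0.607 after 4 h. After 4 h of ActD the libraries labelled KO held more N4bp1 (94.2, 92.2 and 76.8 CPM) than those labelled WT (63.3, 56.1 and 53.4 CPM). A lower level in KO would be the direction of the labels, so the directions at that time are those of the libraries as labelled. The reason for this course was not tested. Libraries also differed in granule genes of granulocyte-monocyte progenitors. Ctsg was at 23.7, 5.06 and 3.21 CPM in the 3 h KO libraries and at 2.14, 39.5 and 3.16 CPM in the WT libraries with 0.5 h of ActD, so the first and the second library of these groups stood apart.

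The members together were lower in KO than in WT in every condition. Their summed level was 997 ± 48.7 CPM in WT and 741 ± 31.6 CPM in KO (mean ± SD, n = 3) at 3 h of R837, and 454 ± 13 CPM against 352 ± 4.9 CPM at 7 h. After 4 h of ActD it ran from 830 to 892 CPM in the libraries labelled WT and from 568 to 587 CPM in those labelled KO. The genotypes did not overlap in any of the 6 conditions, with 958 to 1052 against 710 to 773 CPM at 3 h and 439 to 462 against 348 to 357 CPM at 7 h. The heat map of the members by library shows this as lower values across the KO libraries, with most members lowest at 7 h in both genotypes.

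**Figure D1:**
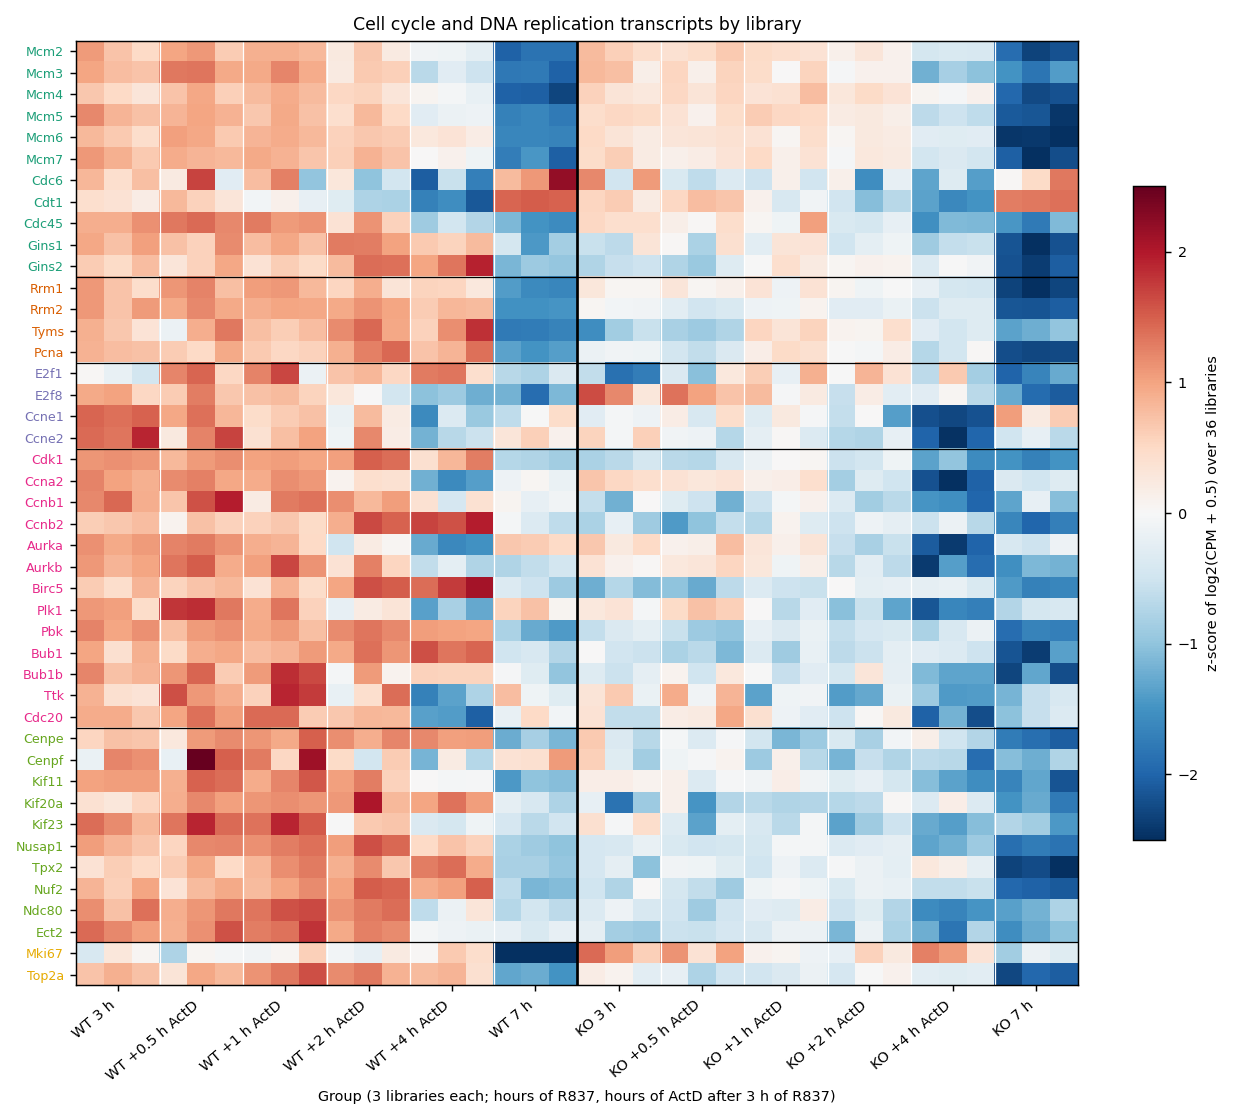
Level of each member (rows, names coloured by role and separated by lines) in each of 36 libraries (columns, 3 per group, WT left and KO right of the black line), as the z-score of log2(CPM + 0.5) over the libraries, with the colour scale ending at 2.5 on either side. Most rows are red in WT up to 4 h of ActD and blue at 7 h of R837 in both genotypes, while Cdt1 is highest at 7 h and Mki67 is higher in KO than in WT at 3 h and at 7 h.

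At 3 h of R837, 32 of the 44 members were lower in KO than in WT and 1 was higher (edgeR quasi-likelihood test, adjusted p below 0.05). Of all 13748 genes tested, 12.6% were lower and 15.2% higher by the same rule (27.8% together). The members' median log2 change was -0.50, against 0.006 over all genes tested. In 33 members every KO library lay below every WT library, as in 18.1% of all genes.

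Of the 13 mitotic genes, 12 were lower and none was higher. Cdk1, the kinase that drives entry into mitosis, was at 67.3, 68.5 and 66.8 CPM in WT and 31.5, 32.9 and 36.1 CPM in KO (log2 change -1.01 ± 0.091, adjusted p = 4.03e-11). Pbk, a mitotic kinase, had the largest log2 change of the 44 at this time, with 13.7, 11.97 and 13.03 CPM in WT and 4.78, 5.46 and 5.84 CPM in KO (2.42-fold lower, log2 change -1.27 ± 0.12, adjusted p = 2.64e-10). Birc5, which encodes survivin, a subunit of the chromosomal passenger complex, was at 28.1, 26.2 and 30.4 CPM in WT and 13.98, 16.97 and 14.8 CPM in KO (log2 change -0.89 ± 0.10, adjusted p = 9.62e-09). In each of the 3 genes the highest KO library lay below the lowest WT library. The mitotic gene that was not called was Ttk, a spindle checkpoint kinase of low level, at -0.17 ± 0.29.

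All 4 genes of nucleotide supply and the clamp were lower in KO. Rrm2, the S-phase subunit of ribonucleotide reductase, was at 29.1, 23.2 and 28.8 CPM in WT and 15.2, 14.1 and 14.1 CPM in KO (1.86-fold lower, log2 change -0.90 ± 0.086, adjusted p = 1.81e-10). Tyms, thymidylate synthase, was at 15.2, 14.4 and 13.3 CPM in WT and 8.29, 9.82 and 10.6 CPM in KO (log2 change -0.58 ± 0.10, adjusted p = 4.42e-05). Pcna, the sliding clamp of the replicative polymerases, was at 44.9, 43.1 and 42.4 CPM in WT and 29.5, 30.2 and 29.9 CPM in KO (log2 change -0.54 ± 0.092, adjusted p = 2.66e-05). None of these groups overlapped. The annotation names pseudogenes of Pcna, Tyms, Ccnb1 and Ccnb2, so values of these 4 are uncertain where reads were shared with a copy.

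Of the 11 licensing and helicase genes, 5 were lower, with a median log2 change of -0.23. Gins2, a subunit of the GINS complex of the active helicase, was at 41.9, 39.2 and 44.3 CPM in WT and 23.6, 25.4 and 26.1 CPM in KO (log2 change -0.74 ± 0.11, adjusted p = 1.85e-06). Its partner Gins1 changed by -0.66 ± 0.14 (adjusted p = 0.000592). The log2 changes of the MCM subunits were smaller. Mcm5 was at 96.1, 80.7 and 76.1 CPM in WT and 66.01, 68.8 and 67.3 CPM in KO (log2 change -0.32 ± 0.076, adjusted p = 0.00155), and -0.06 and not called when scaled to ribosomal protein genes. That scaling used genes picked by name as ribosomal protein or translation elongation factor genes, called ribosomal protein genes for short. Mcm2, Mcm3 and Mcm4 were not called, at -0.13 ± 0.10, -0.10 ± 0.075 and -0.06 ± 0.078. The helicase loaders Cdc6 and Cdt1 were not called either, at 0.01 ± 0.46 and 0.17 ± 0.16.

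Of the 10 spindle, kinetochore and cytokinesis genes, 8 were lower. Ect2, which activates RhoA at the cleavage furrow, was at 12.9, 11.9 and 11.2 CPM in WT and 7.27, 5.79 and 5.68 CPM in KO (log2 change -0.93 ± 0.12, adjusted p = 1.55e-07). Nuf2, a subunit of the kinetochore NDC80 complex, changed by -0.91 ± 0.13 and Nusap1, which bundles spindle microtubules, by -0.70 ± 0.092 on the log2 scale. The kinetochore genes Cenpe and Cenpf were not called, at -0.46 ± 0.20 and -0.68 ± 0.41.

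Of the G1/S factors, both cyclin E genes were lower at 3 h. Ccne1, which with CDK2 drives entry into S phase, was at 7.93, 7.803 and 7.99 CPM in WT and 4.92, 5.28 and 5.14 CPM in KO (log2 change -0.63 ± 0.13, adjusted p = 0.000327), and Ccne2 changed by -0.86 ± 0.21 (adjusted p = 0.00189). The E2F genes E2f1 and E2f8 were not called, at -0.20 ± 0.085 and 0.21 ± 0.18. Top2a, the topoisomerase that untangles replicated DNA, was at 68.7, 72.7 and 68.8 CPM in WT and 56.7, 55.1 and 48.7 CPM in KO (log2 change -0.39 ± 0.085, adjusted p = 0.000718), and -0.11 and not called when scaled to ribosomal protein genes.

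Mki67, which encodes the proliferation marker Ki-67, went the other way. At 3 h it was at 16.6, 21.8 and 19.9 CPM in WT and 34.2, 29.5 and 24.7 CPM in KO (1.52-fold higher, log2 change 0.61 ± 0.14, adjusted p = 0.00122). At 7 h it was at 5.89, 6.88 and 6.07 CPM in WT and 13.7, 18.4 and 17.3 CPM in KO (2.61-fold higher, log2 change 1.38 ± 0.16, adjusted p = 4.11e-09). At both times every KO library lay above every WT library. After 0.5 h of ActD it was also called higher in KO, at 14.3, 19.9 and 19.1 CPM in WT and 30.4, 22.6 and 29.1 CPM in KO. After 1, 2 and 4 h it was not called and the genotypes overlapped. After 1 h it was at 18.8, 19.9 and 24.7 CPM in WT and 20.3, 19.96 and 18.5 CPM in KO. After 2 h it ran from 17.9 to 21.3 CPM in WT and from 17.9 to 24.6 CPM in KO, and after 4 h from 19.8 to 25.3 and from 22.4 to 32.1 CPM. Scaled to ribosomal protein genes, Mki67 was called higher in KO after 4 h (log2 change 0.63) and not called after 1 and 2 h (-0.21 and 0.36). Mki67 (ENSMUSG00000031004) lies at chr7:135689784-135716361 on the minus strand of GRCm38, where the annotation also places Gm45240 on the plus strand. The strand setting of the counting is not given in the sources used here, so reads of these overlapping genes cannot be told apart.

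At 7 h of R837, 27 members were lower in KO and 1 was higher, against 15.1% and 15.5% of all genes tested (30.6% together). The median log2 change was -0.47, against -0.007 over all genes. In 33 members every KO library lay below every WT library, as in 26% of all genes. By role, 10 of 13 mitotic, 7 of 10 spindle, 5 of 11 licensing, 3 of 4 nucleotide supply and 1 of 4 G1/S genes were lower. The largest log2 change was that of Cenpf, at -1.5, on few counts. It was at 0.647, 0.661 and 0.921 CPM in WT and 0.245, 0.21 and 0.32 CPM in KO.

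Tpx2, which activates Aurora A on spindle microtubules, was at 14.1, 14.1 and 13.3 CPM in WT and 8.51, 8.702 and 7.43 CPM in KO at 7 h (log2 change -0.75 ± 0.099, adjusted p = 6.76e-08). Bub1, a spindle checkpoint kinase, was at 9.42, 9.77 and 8.63 CPM in WT and 4.904, 4.498 and 6.75 CPM in KO (log2 change -0.79 ± 0.13, adjusted p = 3.7e-06). Mcm6 was at 28.4, 28.4 and 27.7 CPM in WT and 18.2, 18.4 and 17.4 CPM in KO (log2 change -0.65 ± 0.085, adjusted p = 7.24e-08). The groups did not overlap in any of the 3 genes. Ccnb2, a mitotic cyclin, Aurka, the Aurora A kinase, and Nuf2 changed by -0.74 ± 0.12, -0.73 ± 0.13 and -0.85 ± 0.15 on the log2 scale. Rrm2 and Pcna changed by -0.59 ± 0.11 and -0.52 ± 0.10. Within the MCM complex the values were uneven, since Mcm3 and Mcm4 were not called at 0.12 ± 0.08 and -0.01 ± 0.09. Tyms and Ccne1, lower in KO at 3 h, stood at 0.20 ± 0.11 and 0.28 ± 0.13 at 7 h and were not called. Ccne2, at -0.63 ± 0.23 (adjusted p = 0.0371), was -0.53 and not called without the second 7 h WT library.

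**Figure D2:**
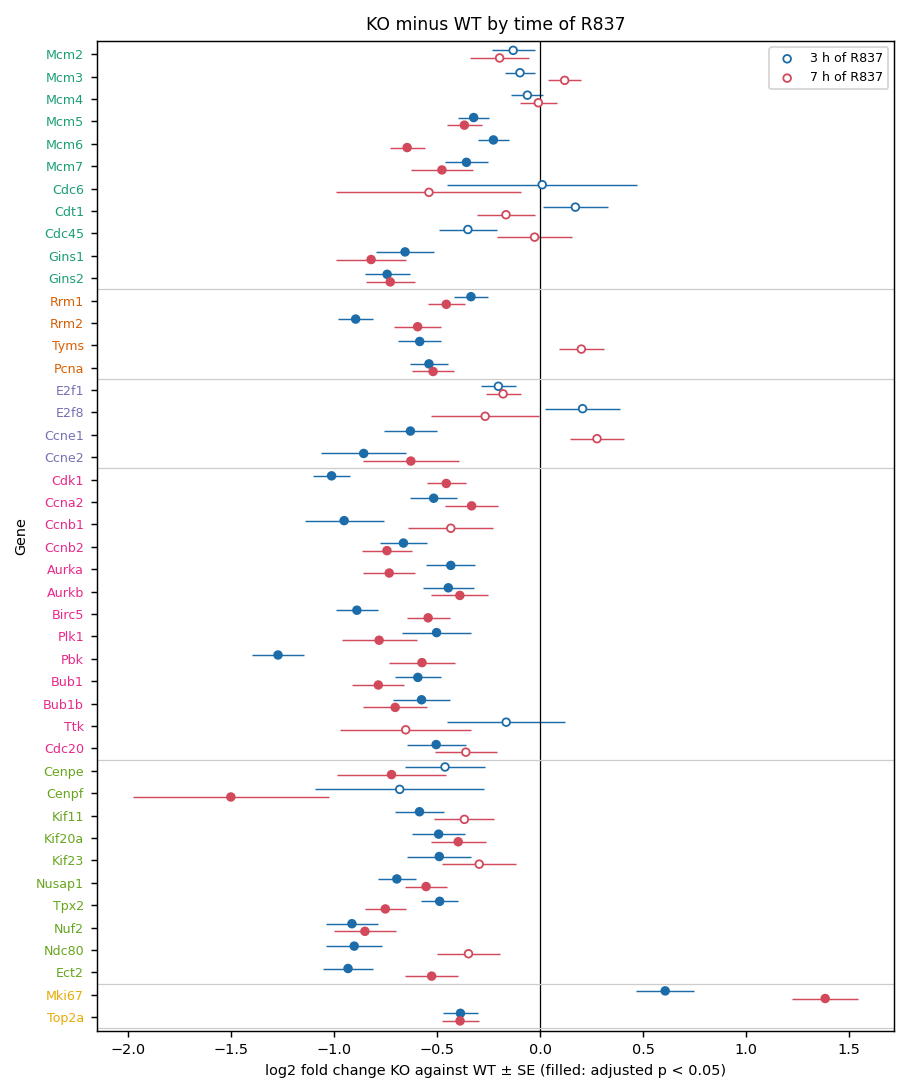
Log2 fold change of KO against WT (points) with its standard error (lines) for each member at 3 h (blue) and 7 h (red) of R837, 3 libraries per group, with filled points where the adjusted p is below 0.05. Most points lie left of 0, down to -1.27 for Pbk at 3 h and -1.5 for the low-level gene Cenpf at 7 h. Mki67 is the filled point on the right at both times.

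The counts were also scaled to 52 ribosomal protein and translation elongation factor genes in place of the composition of all genes. The median of all genes at 3 h then moved to 0.28, and 16 members were lower and 1 higher, against 1.96% and 36.3% of all genes. The mitotic genes Ccna2, Aurka, Aurkb, Plk1, Bub1, Bub1b and Cdc20 and the spindle genes Kif11, Kif20a, Kif23 and Tpx2 were no longer called at 3 h. Of the licensing genes only Gins1 and Gins2 stayed called. At 7 h that scaling gave 20 lower and 1 higher, against 10.3% and 11.6%. Relative to the median of all genes the members' median at 3 h was -0.51 under either scaling. A change of scaling shifts all genes nearly alike, so this value could not move and is no check of the members' difference. Without the first 3 h KO library, which had high granule genes, 33 members were lower at 3 h and 1 was higher.

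The genotypes were also compared in separate libraries at each time of ActD. The number of members lower in KO was 37 after 0.5 h, 32 after 1 h, 34 after 2 h and 34 after 4 h, against 12.7%, 9.92%, 15.4% and 17.9% of all genes tested. The number higher was 1, 0, 0 and 0, against 13.7%, 7.51%, 14.7% and 17.7%. Genes called in either direction were 26.4%, 17.4%, 30.2% and 35.6% of all. The members' median log2 change was -0.66, -0.61, -0.70 and -0.57. All 13 mitotic genes were lower after 1 h, and all 10 spindle genes after 0.5 h and after 1 h. Of the 11 licensing genes, between 5 and 8 were lower at the 4 times.

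Cdk1 ran from 50.7 to 78.7 CPM in the 12 WT libraries with ActD and from 22.9 to 44.02 CPM in the 12 KO libraries. Rrm2 ran from 21.96 to 31.1 CPM in those WT libraries and from 10.6 to 15.6 CPM in those KO libraries. The genotypes did not overlap in either gene. Scaling to ribosomal protein genes gave 23, 35, 24 and 20 members lower and 1, 0, 0 and 3 higher after 0.5, 1, 2 and 4 h, with the median of all genes at 0.17, -0.12, 0.20 and 0.32. Under it 3.12%, 9.59%, 3.62% and 3.35% of all genes were lower and 18.9%, 3.17%, 23.9% and 38.2% higher. Without the second WT library of 0.5 h, which had high granule genes, 32 members were lower and 1 higher at that time.

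**Figure D3:**
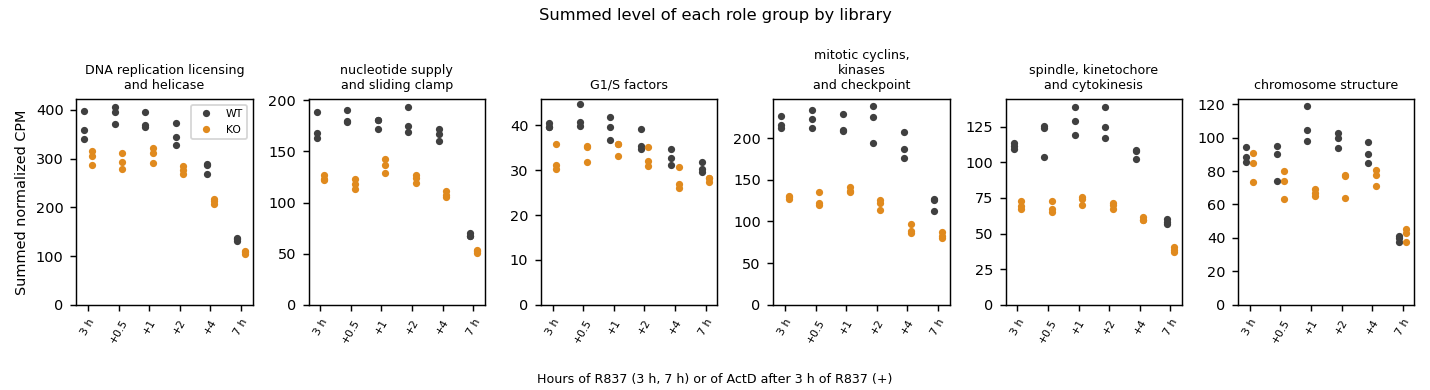
Summed CPM of the members of each role group (panels) in each library (points, WT dark, KO orange) by condition. The mitotic panel shows 212 to 226 CPM in WT and 127 to 131 CPM in KO at 3 h and the spindle panel 109 to 113 and 66.9 to 72.6 CPM, while the chromosome structure genes, which include Mki67, overlap at 3 h and at 7 h.

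Between 3 h and 7 h of R837 the cell cycle genes fell in both genotypes. In WT 38 of 44 members fell and 1 rose, against 30.7% and 27.3% of all genes tested (58% together), with a median log2 change of -0.99 against -0.035 over all genes. In KO 35 fell and 2 rose, against 31.7% and 28.7% (60.4% together), with a median of -0.87 against -0.027. These comparisons use the same libraries as those between the genotypes at 3 h and 7 h. Every 7 h library lay below every 3 h library for 38 members in WT and 35 in KO, as for 34.5% and 33.7% of all genes.

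The median log2 change in WT was -1.61 for the licensing genes, -1.28 for nucleotide supply and -0.66 for the mitotic genes. Rrm2 fell from 29.1, 23.2 and 28.8 CPM to 5.67, 5.68 and 5.83 CPM in WT (4.72-fold, log2 change -2.24 ± 0.094, adjusted p = 1.46e-22). In KO it fell from 15.2, 14.1 and 14.1 CPM to 3.71, 3.699 and 3.96 CPM (log2 change -1.94 ± 0.10). Mcm5, a subunit of the replicative helicase, fell from 96.1, 80.7 and 76.1 CPM to 23.3, 24.04 and 22.4 CPM in WT (log2 change -1.86 ± 0.081) and by a log2 change of -1.90 ± 0.084 in KO. No 7 h library reached a 3 h library of its genotype in these genes. In each genotype 9 of the 11 licensing genes fell. Cdc6 was not called in either genotype, at 0.51 ± 0.44 in WT and -0.04 ± 0.47 in KO.

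Of the mitotic genes, 11 of 13 fell in WT and 11 in KO. Pbk fell from 13.7, 11.97 and 13.03 CPM to 4.24, 3.19 and 2.87 CPM in WT (log2 change -1.91 ± 0.13, adjusted p = 4.86e-16). Ccna2, cyclin A2, the partner of CDK1 and CDK2, changed by -1.15 ± 0.12 in WT and -0.97 ± 0.12 in KO. Of the spindle genes, 9 fell in WT and 8 in KO. Kif11, the motor that separates the spindle poles, changed by -1.47 ± 0.13 and -1.25 ± 0.14. Top2a fell from 68.7, 72.7 and 68.8 CPM to 33.8, 34.5 and 31.4 CPM in WT, with log2 changes of -1.07 ± 0.087 in WT and -1.08 ± 0.089 in KO.

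Cdt1, the licensing factor that is degraded in S phase, rose in both genotypes. It went from 6.31, 6.04 and 5.23 CPM to 13.9, 14.4 and 13.99 CPM in WT (2.41-fold, log2 change 1.27 ± 0.15, adjusted p = 1.22e-09). In KO it went from 6.89, 7.44 and 5.35 CPM to 12.1, 12.5 and 13.2 CPM (1.91-fold, log2 change 0.94 ± 0.15, adjusted p = 8.59e-07). No 7 h library overlapped a 3 h library. Cdt1 shares its locus with the gene model Gm20388 on the same strand, so its value is uncertain where reads were shared. Gins2, Nusap1, Ccna2, Ccne2, Kif20a, Cdc20, Cdc45 and Mcm7 overlap protein-coding genes on the opposite strand. Since the strand setting is not given, their values carry the same doubt as that of Mki67. Kif11, Top2a, Ndc80, Cenpf, Tpx2, Ect2, Plk1, Rrm1 and E2f8 overlap only gene models that are not protein-coding. E2f1 was not called, at -0.07 ± 0.084 in WT and -0.05 ± 0.086 in KO, while E2f8, a repressor of the E2F family, changed by -1.62 ± 0.21 and -2.09 ± 0.23. Scaling to ribosomal protein genes put the median of all genes at 0.12 in WT and -0.12 in KO, with 35 members lower in WT and 35 in KO, against 21.4% and 33.1% of all genes.

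The change from 3 h to 7 h differed between the genotypes for 6 members by the test of the difference itself, 5 with a higher value in KO and 1 with a lower, against 5.45% and 6.84% of all genes tested (12.3% together). Tyms fell in WT from 15.2, 14.4 and 13.3 CPM to 7.83, 7.87 and 8.05 CPM. In KO it was at 8.29, 9.82 and 10.6 CPM at 3 h and 8.76, 8.996 and 9.55 CPM at 7 h, which overlapped (difference of the log2 changes 0.78 ± 0.15, adjusted p = 0.000194). Ccne1 fell in WT from 7.93, 7.803 and 7.99 CPM to 4.47, 5.32 and 6.07 CPM. In KO it rose from 4.92, 5.28 and 5.14 CPM to 7.11, 5.67 and 6.35 CPM (difference 0.91 ± 0.18, adjusted p = 0.000433). That rise was small, with a log2 change of 0.32 ± 0.13 (adjusted p = 0.0339), and was 0.24 and not called without the first 7 h KO library. Scaled to ribosomal protein genes, the rise of Ccne1 in KO was 0.23 and not called.

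Cdk1, Pbk and Mki67 fell in both genotypes and by less in KO, with differences of 0.56 ± 0.13, 0.70 ± 0.20 and 0.78 ± 0.21. Cdk1 reached 32.5, 31.9 and 30.5 CPM in WT and 23.6, 21.9 and 23.7 CPM in KO at 7 h, still without overlap. Mcm6 fell by more in KO, with log2 changes of -1.80 ± 0.08 in WT and -2.22 ± 0.084 in KO (difference -0.42 ± 0.11, adjusted p = 0.00937). The other members were not called, and standard errors of the differences ran up to 0.647 with a median of 0.183. Scaling to ribosomal protein genes left 2 members higher and 1 lower, against 1.54% and 11.6% of all genes, with the median of all genes at -0.25. Cdk1, Mki67 and Pbk were then at 0.32, 0.53 and 0.46 and not called. Pbk was 0.59 and not called without the third 7 h WT library, and Mcm6 -0.34 and not called without the third 3 h WT library.

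**Figure D4:**
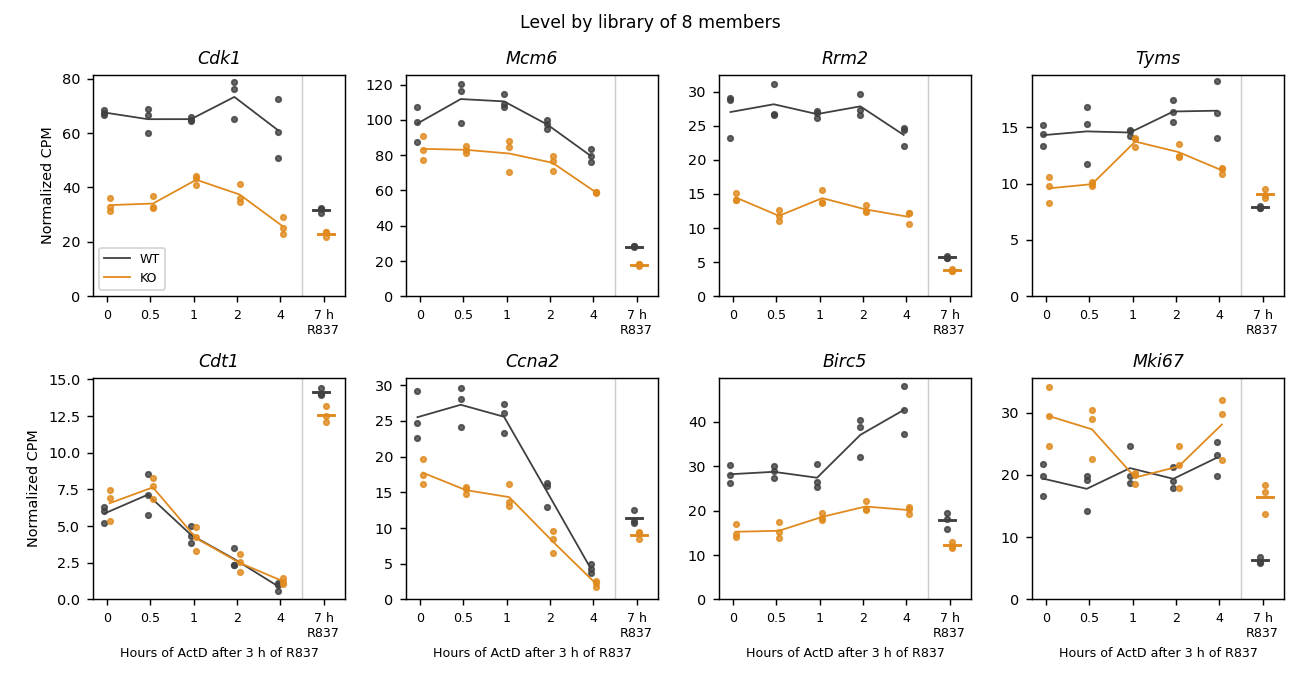
CPM of 8 members in each library (points) by hours of ActD after 3 h of R837 (times evenly spaced, not to scale) and at 7 h of R837 without ActD (right of the grey line), with lines and bars at the mean of 3 libraries, WT dark and KO orange. Cdk1 and Rrm2 of WT lie above KO at every time, Ccna2 and Cdt1 fall under ActD in both genotypes, and Cdt1 is highest at 7 h of R837.

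With transcription blocked, each transcript was followed as a straight line over 0, 0.5, 1, 2 and 4 h of ActD in 30 libraries. CPM has no absolute scale, so a negative slope is a faster loss than the average transcript and a positive slope a slower loss. In WT 24 members had a negative and 9 a positive slope, against 34.8% and 35.5% of all 13537 genes tested (70.3% together), with a median of -0.11 per hour on the log2 scale. In KO 29 were negative and 3 positive, against 35.8% and 32.3% (68.1% together), with a median of -0.12. Scaling to ribosomal protein genes put the median of all genes at -0.20 in WT and -0.16 in KO. Under it 40 members in WT and 42 in KO had a negative slope, against 70.6% and 62.4% of all genes, and 0 a positive, against 3.63% and 3.48%.

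The steepest negative slopes in WT were those of Cdt1, Ccna2, Cdc6, Aurka and Plk1, which are helicase loaders, cyclin A2 and mitotic kinases. Ccna2 went in WT from 29.2, 24.8 and 22.6 CPM to 5.02, 3.7 and 4.33 CPM after 4 h (slope -0.65 ± 0.054 per hour, adjusted p = 2.07e-12). In the libraries labelled KO it went from 19.6, 17.4 and 16.2 CPM to 2.28, 1.74 and 2.63 CPM (slope -0.74 ± 0.055). Cdt1 went in WT from 6.31, 6.04 and 5.23 CPM to 1.003, 1.14 and 0.603 CPM (slope -0.70 ± 0.071), with a slope of -0.66 ± 0.064 in KO. The 4 h libraries lay below all 3 h libraries without ActD of their genotype in both genes. Aurka had slopes of -0.52 ± 0.04 in WT and -0.55 ± 0.041 in KO, Plk1, the polo-like kinase of mitosis, -0.47 ± 0.065 in WT, and Ccne2 -0.41 ± 0.061 and -0.49 ± 0.067. The helicase subunits Mcm2 and Mcm5 were lost more slowly, at -0.20 ± 0.028 and -0.18 ± 0.022 in WT.

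At the slow end stood Birc5 and Ccnb2. Birc5 went in WT from 28.1, 26.2 and 30.4 CPM to 37.3, 42.6 and 48.1 CPM after 4 h (slope 0.19 ± 0.027, adjusted p = 2.13e-07) and had a slope of 0.11 ± 0.029 in KO. Ccnb2 had a slope of 0.18 ± 0.03 in WT and 0.04 ± 0.032, not called, in KO. Gins2, Bub1, Nuf2, Tpx2, Tyms, Pcna and Kif20a were also positive in WT, from 0.07 to 0.16. Each of these 9 positive slopes in WT turned negative under scaling to ribosomal protein genes, Birc5 to -0.024 and Ccnb2 to -0.027, as did the 3 in KO. Tyms, Pcna and Nuf2 were not called without the third WT library of 4 h (0.04, 0.04 and 0.07), nor Kif20a without the second (0.06). Over 0 to 2 h of ActD alone 14 members were called in WT and 17 in KO. The share of all genes called over these times is not given here, so these counts are no result about the members. Of the named members' slopes in both genotypes, 22 stayed called with the same sign, 16 were no longer called and 0 changed sign.

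**Figure D5:**
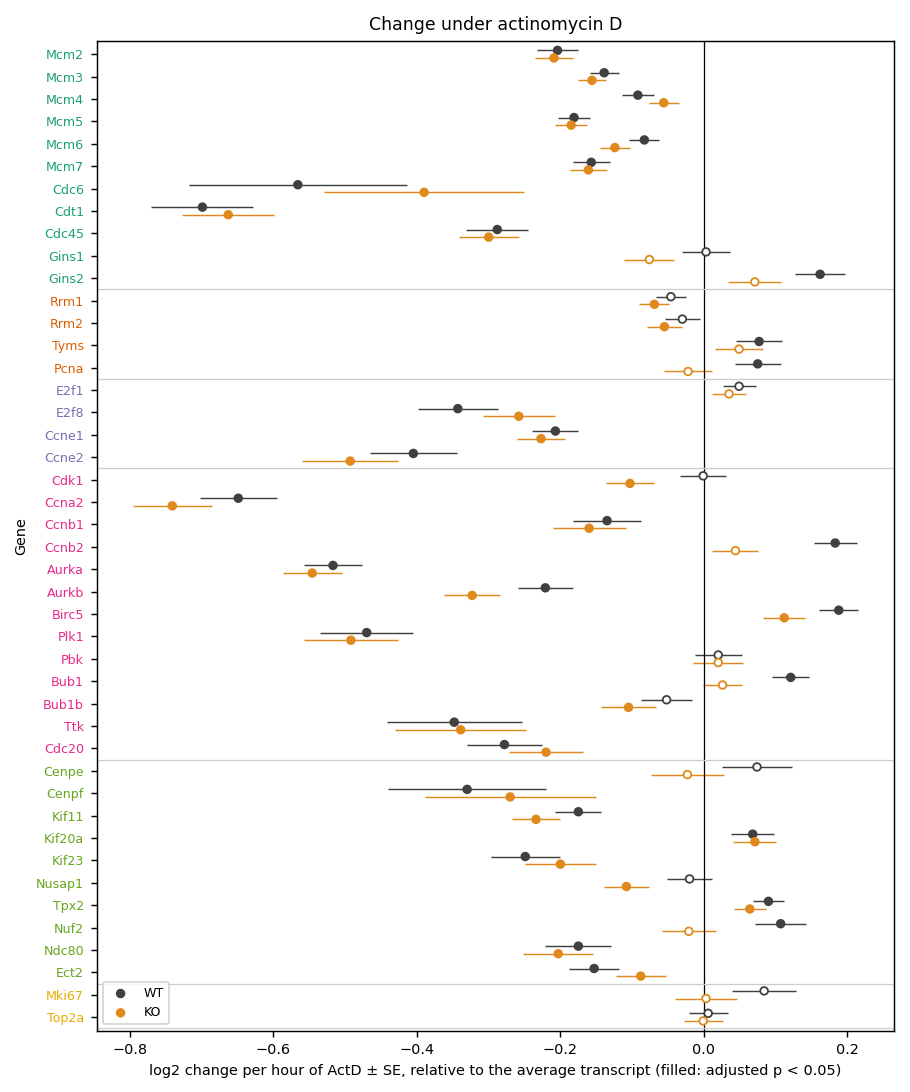
Slope of the log2 level per hour of ActD (points) with its standard error (lines) for each member in WT (dark) and KO (orange), relative to the average transcript, from 15 libraries per genotype, with filled points where the adjusted p is below 0.05. Ccna2, Cdt1, Aurka and Plk1 lie far to the left in both genotypes and Birc5 of WT lies furthest right, and the filled points right of 0 move left of it under scaling to ribosomal protein genes.

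No member had a slope that differed between KO and WT by the edgeR test. At an unadjusted p below 0.05 there were 5 and DESeq2 called 0, while of all genes tested 0.0517% were higher and 0.0148% lower in edgeR (0.0665% together). The smallest p among the members was that of Ccnb2, with a difference of -0.14 ± 0.044 per hour (adjusted p = 0.392). Standard errors of the difference ran from 0.028 to 0.22 per hour with a median of 0.048, so differences of that size were not detectable. N4bp1 itself had slopes of -0.34 ± 0.027 in WT and 0.01 ± 0.026 in KO.

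Cells with 7 h of R837 were also compared with those that had 3 h of R837 and then 4 h of ActD. In WT 28 members were lower without ActD and 9 higher, against 37.3% and 37.9% of all genes tested (75.3% together). In KO 25 were lower and 9 higher, against 36.1% and 38% (74.1% together). Scaling to ribosomal protein genes gave 14 lower and 18 higher in WT and 16 lower and 19 higher in KO, with the median of all genes at 0.80 and 0.52. Of all genes, 8.05% were then lower and 66% higher in WT, and 14.4% lower and 55.6% higher in KO. Cdt1 was at 13.9, 14.4 and 13.99 CPM without ActD and 1.003, 1.14 and 0.603 CPM with it in WT (log2 difference 3.92 ± 0.21, adjusted p = 7.92e-20), and differed by 3.30 ± 0.18 in KO. Ccna2 was also higher without ActD, by 1.41 ± 0.15 in WT and 2.01 ± 0.16 in KO, as were Aurka by 1.64 ± 0.14 and 1.47 ± 0.15 and Plk1 by 1.28 ± 0.20 and 1.17 ± 0.22. Rrm2 was lower, at 5.67, 5.68 and 5.83 CPM without ActD and 21.96, 24.7 and 24.3 CPM with it in WT (log2 difference -2.05 ± 0.096, adjusted p = 1.41e-21), and differed by -1.61 ± 0.11 in KO. Mcm6 differed by -1.50 ± 0.081 and -1.71 ± 0.084. This comparison shares its libraries with the slopes and with the change from 3 h to 7 h.

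Marker genes of other cells were measured in the same libraries. The 10 macrophage markers summed to 22750 to 26480 CPM in WT and 21950 to 25490 CPM in KO at 3 h, and to 25280 to 25640 and 25750 to 26140 CPM at 7 h. Singly, 4 were called higher and 2 lower in KO at 3 h, and 2 higher and 2 lower at 7 h. Lyz2 held the most counts of them, at a median of 472673 per library, followed by Cd14 at 89272. The 8 genes of granulocyte-monocyte progenitors and their granules summed to 26.1 to 28.8 CPM in WT and 41.7 to 92.2 CPM in KO at 3 h (6 called higher and 0 lower in KO), and to 14.1 to 15.7 and 19.1 to 20.8 CPM at 7 h (1 called higher and 0 lower in KO). The 6 fibroblast and stromal markers summed to 13.6 to 15.4 and 28.4 to 30.2 CPM at 3 h (5 called higher and 0 lower in KO) and to 15.4 to 18.1 and 28.5 to 30.4 CPM at 7 h (6 called higher and 0 lower in KO). The 5 osteoclast genes summed to 117 to 125 and 201 to 212 CPM at 3 h (4 called higher and 0 lower in KO) and to 170 to 175 and 311 to 319 CPM at 7 h (3 called higher and 0 lower in KO). The 8 neutrophil genes overlapped at 3 h, at 630 to 730 and 585 to 735 CPM (0 called higher and 0 lower in KO), and not at 7 h, at 593 to 614 and 882 to 921 CPM (2 called higher and 0 lower in KO).

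The 7 B and plasma cell genes summed to 51.6 to 56.8 CPM in WT and 98.1 to 105 CPM in KO at 3 h (3 called higher and 1 lower in KO) and to 36.1 to 43.6 and 67.03 to 70.7 CPM at 7 h (2 called higher and 0 lower in KO). The 6 dendritic cell genes summed to 35.3 to 41.1 and 48.2 to 50.2 CPM at 3 h and to 35.3 to 37.01 and 52.1 to 56.3 CPM at 7 h, and the 5 mast cell and basophil genes to 8.27 to 9.32 and 6.33 to 7.65 CPM and to 5.83 to 6.28 and 6.096 to 7.15 CPM. Of the dendritic cell genes 2 were called higher and 1 lower in KO at 3 h, and 2 and 0 at 7 h. Of the mast cell and basophil genes 0 were called higher and 1 lower at 3 h, and 0 and 0 at 7 h. T and NK cell genes were near 0, with 6 genes summing to 0.295 to 0.666 CPM in WT and 0.658 to 1.25 CPM in KO at 3 h and to 0.137 to 0.453 and 0.32 to 0.841 CPM at 7 h. Of these, Cd3e was at 0 counts in 25 of 36 libraries, Cd3g in 23, Ncr1 in 9, Cd3d in 7, Cd2 in 7 and Nkg7 in 4. The 6 erythroid genes summed to 0.475 to 0.918 CPM in WT and 0.234 to 0.696 CPM in KO at 3 h and to 0.15 to 0.614 and 0.042 to 0.12 CPM at 7 h. Car1 was at 0 counts in 36 libraries, Klf1 in 28, Hba-a1 in 13, Hbb-bs in 9 and Epor in 1. The part of these cells in the members' difference was not tested.

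Beyond the members, 53 of 124 other cell cycle genes were lower in KO at 3 h and 8 higher, with a median log2 change of -0.29, and 39 were lower and 11 higher at 7 h, with a median of -0.25. Of all genes tested 12.6% were lower and 15.2% higher at 3 h, and 15.1% and 15.5% at 7 h. Of 50 further mitotic genes 28 were lower at 3 h and 1 higher. They included Racgap1, a cytokinesis regulator that works with ECT2, at -0.84 ± 0.081, Spc25, another NDC80 complex subunit, at -1.04 ± 0.11, and Prc1, of the central spindle, at -0.95 ± 0.11. Of 37 further replication genes 17 were lower and 0 higher, among them Tk1, thymidine kinase, at -0.88 ± 0.10, and Gmnn, whose product geminin inhibits CDT1, at -0.94 ± 0.14. Of 14 E2F, DREAM and FOXM1 regulators 2 were lower and 1 higher, near the share of all genes.

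Genes that govern entry into the cycle were mixed. Cdkn2c, an inhibitor of CDK4 and CDK6, was at 12.8, 11.97 and 11.4 CPM in WT and 6.04, 5.79 and 6.296 CPM in KO at 3 h (log2 change -0.998 ± 0.10, adjusted p = 5.9e-10). Ccnd1, cyclin D1, was at 154, 134 and 118 CPM in WT and 99.2, 90.8 and 86.2 CPM in KO at 3 h. At 7 h it was at 17.03, 15.8 and 16.9 CPM and 4.52, 3.95 and 3.88 CPM (log2 change -2.004 ± 0.12, adjusted p = 1.23e-16), and its fall from 3 h differed between the genotypes by -1.45 ± 0.15. Neither gene's groups overlapped. Cdkn1b, which encodes the CDK inhibitor p27, was not called at 3 h (0.08 ± 0.11) and at 7 h was at 40.98, 41.02 and 41.6 CPM in WT and 74.2, 84.3 and 67.03 CPM in KO (log2 change 0.87 ± 0.10). Gadd45a, a growth arrest gene, was higher in KO at 7 h by 1.70 ± 0.10. Between 3 h and 7 h, 87 of the 124 fell and 11 rose in WT, and 79 fell and 16 rose in KO. Of all genes tested 30.7% fell and 27.3% rose in WT, and 31.7% fell and 28.7% rose in KO.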

How the data were processed

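Whole-culture RNA was sequenced as single-end reads, per the labels' protocols, and aligned with GSNAP to GRCm38, per the submitters' processing notes. Counting tool, annotation and strand setting are not given in the sources used here. Per Ensembl gene and library, the authors deposited a raw read count, an RPKM value and a gene width, per the file headers. The deposited RPKM was used only to compare levels between genes, and the counts were tested as deposited.

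The 44 members and all gene lists were chosen with earlier results of these data known, so they are not independent of them. Of 52636 genes, 52403 had a gene name in the reference table, and none of the rows was a total. Genes were filtered with filterByExpr and scaled by TMM in edgeR 4.0.16 (limma 3.58.1, R 4.3.3). The 36 libraries entered a single 12-group quasi-likelihood model of 13748 genes, so all groups share 1 estimate of the spread. A second model fitted a line per genotype over hours of ActD in 30 libraries (13537 genes). P-values were adjusted by Benjamini-Hochberg over all genes tested, with a threshold of 0.05. Standard errors were derived from the fold change and the F statistic. Named members were up to 3 per role and comparison with the smallest p among those called, and all called against the majority. Members not called are given beside them as values. Of the other cell cycle and marker genes, 2 are not reported here. The scripts were tested on simulated data. No library pair was identical. The libraries of a group are labelled as separate mice. P-values rest on the spread within groups, pooled over all groups, and in the second model on the spread around the lines. If the same mice supplied more than 1 group, libraries and tests of different groups are not independent, which could not be modelled. Alternatives were RLE scaling, DESeq2 1.42.0, other filters, a threshold of 0.01, only the libraries compared, and each library left out in turn. A further alternative was scaling to 52 ribosomal protein and translation elongation factor genes, called ribosomal protein genes for short.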

Additional observations from a re-analysis of the deposited data

Results flagged for a closer look

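The change from 3 h to 7 h of R837 differed between KO and WT for 6 members, by the edgeR test of the difference (KO change minus WT change, log2 scale). Of all genes tested 12.3% differed, so the number of members was near the share of all genes. The difference was 0.78 for Tyms, 0.91 for Ccne1, 0.56 for Cdk1, 0.78 for Mki67 and 0.70 for Pbk, where KO fell less or rose, and -0.42 for Mcm6, where KO fell more. The part of cell makeup or scaling in these differences was not tested beyond the values given for each.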

How the results depend on the processing

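No paired analysis was possible because the labels give the libraries no replicate number or mouse shared between groups. Scaling to ribosomal protein genes moved the number of members called from 33 to 17 at 3 h, from 38 to 24 after 0.5 h of ActD and from 6 to 3 for the genotype difference in the change from 3 h to 7 h. Slopes over 0 to 2 h of ActD called 14 members in WT and 17 in KO, and the share of all genes for this fit is not given here. The cause of these moves was not tested. Under the ribosomal scaling these values changed sign. E2f1 at 7 h against 4 h of ActD in WT became 0.53. The slopes in WT became -0.024 for Birc5, -0.027 for Ccnb2, -0.087 for Bub1, -0.053 for Gins2, -0.119 for Tpx2, -0.107 for Nuf2, -0.137 for Tyms, -0.139 for Pcna and -0.143 for Kif20a. The slopes in KO became -0.044 for Birc5, -0.094 for Tpx2 and -0.087 for Kif20a. Of the named members' values, DESeq2 kept 152 on their side of the threshold and lost 2, RLE scaling kept 150 and lost 4, and the ribosomal scaling kept 127, lost 14 and reversed 13. With each library left out in turn, called members ranged from 28 to 34 at 3 h, 22 to 26 at 7 h, 33 to 38, 27 to 31, 28 to 34 and 29 to 34 after 0.5, 1, 2 and 4 h of ActD, 37 to 39 (WT) and 33 to 36 (KO) between 3 h and 7 h, 5 to 7 for the difference of these changes, 35 to 37 (WT) and 32 to 35 (KO) for 7 h against 4 h of ActD, 29 to 33 (WT) and 25 to 31 (KO) for the slopes, and stayed at 0 for the slope difference. Cdc6 and Cenpf had too few counts for small changes to be seen.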

Other observations

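Genes known only by a Gm number, an Ensembl id or a name ending in Rik were left out of this ranking. Of the rest outside the lists, the 5 genes whose pattern over the 12 group means was most like the mean of the members were Tcf19 (Pearson r = 0.979), Gcat (0.976), Ska1 (0.971), Rad51ap1 (0.968) and Tmem273 (0.966). These are correlations over 12 group means of the same libraries, given as a description. Among the members, Kif11 followed their mean most closely, with r = 0.993, and Cdt1 (-0.158), Cdc6 (0.034) and Mki67 (0.188) least.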
